A study of Homo sapiens with 6 samples.

Results

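The BCL2 family of apoptosis regulators was examined in A673 Ewing sarcoma cells through 10 of its genes, BCL2, BCL2L1, MCL1, BAX, BAK1, BCL2L11, BID, BAD, BBC3 and PMAIP1. The members were the array probes designed against a RefSeq transcript of one of these genes, which gave 15 of the 50599 gene probes on the array, and every probe was kept separately. Total RNA was hybridised to 6 Agilent 1-colour arrays, of which 3 held A673/TR/empty cells, the control, and 3 held A673/TR/LOX-PP cells. A673 is a human Ewing sarcoma cell line, a tumour driven by the EWS/FLI1 fusion protein. All of the cells carried the tetracycline repressor (TR). The control cells also carried the empty doxycycline-inducible lentiviral vector, and the A673/TR/LOX-PP cells the same vector with the cDNA of the lysyl oxidase propeptide (LOX-PP), the fragment cleaved off the N-terminal end of the LOX proenzyme. All 6 labels carry one treatment text, doxycycline at 1 µM for 72 h, so they do not settle whether the control cells received it as well. The study's own text gives its doxycycline doses as mass per volume, which differs from the molar unit of the labels. The cell lines were stable selected populations or clones, and which of them was hybridised is not given in the sources used here. The 3 arrays of a group came from separate experiments. The comparison addressed whether LOX-PP expression was accompanied by a different mRNA level of these genes. No label names uninduced A673/TR/LOX-PP cells, so differences between the cell lines and effects of LOX-PP expression cannot be told apart.

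Apoptosis through the mitochondrion is set by interactions among BCL2 family proteins. Pro-survival members (BCL2, BCL-XL from BCL2L1, and MCL1) hold back the effectors BAX and BAK, which otherwise form pores in the outer mitochondrial membrane and let cytochrome c reach the caspases. BH3-only proteins such as BIM (from BCL2L11), BID, BAD, PUMA (from BBC3) and NOXA (from PMAIP1) sense stress and act on the other members, either by occupying the pro-survival proteins or by engaging the effectors directly.

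No member passed the test. The number of member probes past an adjusted p of 0.05 (limma, adjusted over 32647 tested probes) was 0 of 15, while 5.66% of all tested probes passed it. At an unadjusted p under 0.05, 2 of the 15 member probes (13.3%) were counted, one for BCL2 and one for BCL2L11, against 21.3% of all tested probes. From these values the methods' t-test gave 0 of 15 after Benjamini-Hochberg adjustment and 5 of 15 without it, against 19.7% of all tested probes. Of the 15 changes, 11 were below 0 and 4 above, and the median was -0.24 on the log2 scale, beside a median of 0.13 over all tested probes. After quantile normalization these medians were -0.14 and -0.03. Every member probe was well above background on all 6 arrays, which the probes tested as a whole were not. When only the 24720 probes that met this were tested, 1729 passed the adjusted threshold. Their median change was 0.07, and 24.2% had an unadjusted p under 0.05 (limma). The A673/TR/LOX-PP and control arrays did not overlap for 7 member probes. In 6 of the 15 (40.0%) the A673/TR/LOX-PP arrays were the lower, beside 13.4% of all probes, and in 1 they were the higher, beside 16.1%. Among these 6 were 2 probes of BCL2L11 and 2 of BID, so they are not 6 independent genes. No such share was computed for the probes well above background on all 6 arrays. In bulk RNA, less mRNA in each cell and fewer cells with the mRNA cannot be told apart.

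The spread between arrays set how small a change could be seen. All 15 member probes were well above background on all 6 arrays. The half-width of the 95% confidence interval of the change ran from 0.46 to 1.14 log2 units with a median of 0.57, and for 11 of the 15 probes the whole interval lay within 1 log2 unit, or 2-fold, of no change. A level below is the log2 signal of a probe over the 75th percentile of its array, so levels can be compared between arrays for 1 probe and not between probes.

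Replicate 1 of the A673/TR/LOX-PP arrays was alone on its slide and in its scan, so the slide and that array cannot be told apart. The share of spots well above background ran from 56.9% to 74.8%. Among all probes 1849 passed the threshold, and without control replicate 1 or 2 the numbers were 407 and 444, without A673/TR/LOX-PP replicate 2 or 3 they were 892 and 1037. The only LOX probe had a mean level of 0.13 ± 0.22 (SD, n = 3) in control cells and -0.70 ± 0.58 in A673/TR/LOX-PP cells, a change of -0.82 (adjusted p = 0.217). The sources used here do not place this probe inside or outside the propeptide cDNA, so it checks nothing about the labels, and directions below rest on the labels. Of 8 Ewing sarcoma marker genes, 7 were well above background on all 6 arrays, FATE1 being the exception, and the epithelial marker CDH1 was not well above background on any. Of the 5 tested probes of 4 fibroblast marker genes 1 passed the test, that of LUM, which fell by 2.29 (adjusted p = 0.0191) and was well above background on 2 control arrays and 1 A673/TR/LOX-PP array. The list went both ways, with 3 changes below 0 and 2 above. COL3A1 changed by -1.37 without overlap (adjusted p = 0.0793) and COL1A1 by 0.65 without overlap (adjusted p = 0.175). The other change above 0 was only 0.0087, on a DCN probe, while another DCN probe gave -0.67. No epithelial or blood cell marker passed the test, and the part of these markers in the results was not tested.

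Among the pro-survival members, all 4 probes had a change below 0 and none passed the test. BCL2, which binds BH3-only proteins and the effectors at the mitochondrial and endoplasmic reticulum membranes, was measured by one probe for the transcript of its long alpha form and one for that of the shorter beta form. The alpha probe (A_23_P352266, 10 spots per array) read 1.21, 1.51 and 0.69 in control cells and 0.22, 0.33 and 0.26 in A673/TR/LOX-PP cells. The groups did not overlap, with a gap of 0.36, and the LOX-PP arrays lay much closer together (SD 0.052) than the controls (SD 0.42). The change was -0.87 with a 95% interval from -1.49 to -0.24, a ratio of 0.549 on the linear scale, and the adjusted p was 0.118. Relative to the median of all probes it was -0.99. When each array was left out, the change ran from -1.09 to -0.68. The adjusted p (limma) was 0.382 without control replicate 1 and 0.384 without control replicate 2. On the beta probe (A_33_P3355185) control cells read 0.33, 0.55 and 0.01 and A673/TR/LOX-PP cells 0.63, -0.25 and -0.34. Here the groups overlapped, because A673/TR/LOX-PP replicate 1 was the highest of the 6 arrays, and the change was -0.29 (interval -1.05 to 0.48, adjusted p = 0.660). Without that array it was -0.59, and it was -0.11 without A673/TR/LOX-PP replicate 3, -0.15 without A673/TR/LOX-PP replicate 2 and -0.16 without control replicate 2.

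The promoter of BCL2 is shown because its alpha probe had one of the 2 largest changes among the members. The 300 bases from 250 before to 50 after the annotated start (RefSeq, GRCh38.p14, chr18:63319720-63320019, minus strand) hold no match to any of the 6 motifs searched on both strands, and would show one in capitals.
BCL2 promoter: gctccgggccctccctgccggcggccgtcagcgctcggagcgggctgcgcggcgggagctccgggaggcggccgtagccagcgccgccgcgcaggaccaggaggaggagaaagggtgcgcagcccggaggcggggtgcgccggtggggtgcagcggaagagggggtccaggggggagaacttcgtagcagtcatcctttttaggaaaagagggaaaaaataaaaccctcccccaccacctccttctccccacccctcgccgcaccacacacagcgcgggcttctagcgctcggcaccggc
The motifs were an ETS site CCGGAAG, a tandem ETS site GGAAGGAA, an E2F site TTTCGCGC, a FOXO site GTAAACA, an SP1-type GC box GGGCGG and a cyclic AMP response element TGACGTCA. None is contained in another, although neighbouring matches could share bases. Over 35116 RefSeq promoters of that length these were found in 10.3%, 3.67%, 0.515%, 3.42%, 45.0% and 1.85%, in the same order. The G and C content of the BCL2 promoter was 70.7%, beside a median of 58.7% over all promoters.

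BCL2L1 codes for BCL-XL and for a shorter, pro-apoptotic splice form. Its probe (A_23_P210886, 10 spots per array) was designed against NM_138578, the transcript of the long form, and read 0.14, -0.05 and -0.26 in control cells and -0.69, -0.21 and -0.24 in A673/TR/LOX-PP cells. A673/TR/LOX-PP replicate 1 was the lowest array and the other two lay inside the control range. The change was -0.32 (interval -0.89 to 0.24, adjusted p = 0.486), and without that array -0.17. MCL1, a short-lived protein degraded through several ubiquitin ligases, showed the same order of arrays. Its probe (A_24_P336759) read 2.16, 2.05 and 1.84 in control cells and 1.67, 1.99 and 1.97 in A673/TR/LOX-PP cells. The groups overlapped, the change was -0.14 (interval -0.66 to 0.37, adjusted p = 0.757), and without A673/TR/LOX-PP replicate 1 it was -0.036. It was -0.069 without control replicate 1 and -0.23 without control replicate 3.

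**Figure D1:**
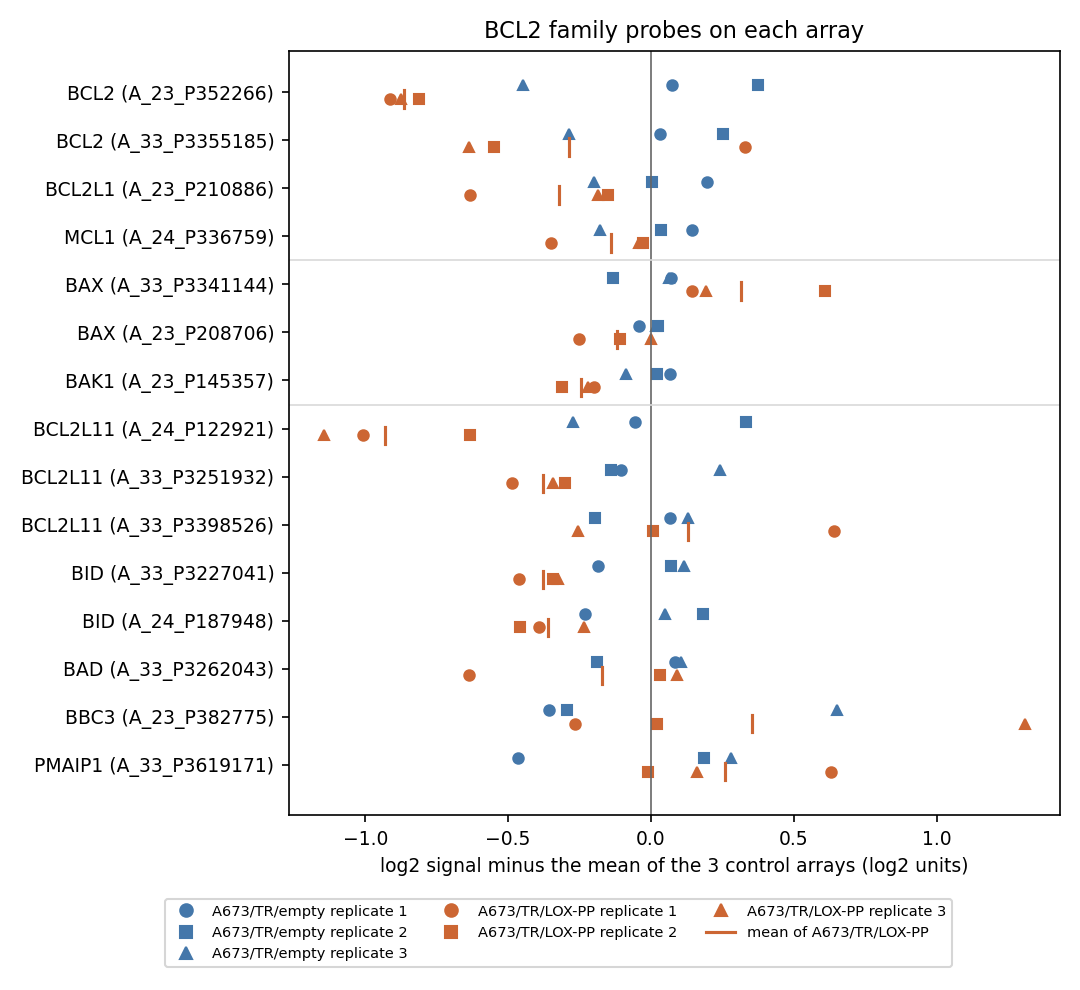
Each point is the log2 signal of 1 member probe on 1 array minus the mean of the 3 control arrays (horizontal axis, log2 units), with the control arrays in blue, the A673/TR/LOX-PP arrays in orange, the replicate number as the symbol and the A673/TR/LOX-PP mean as a short line. Horizontal rules separate the pro-survival, effector and BH3-only members. The orange points of BCL2 A_23_P352266 and BCL2L11 A_24_P122921 lie apart from the blue points by 0.36, the widest gaps among the 15 probes.

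The effectors gave small changes of both signs. BAX, the cytosolic effector that moves to the mitochondrion when activated, was measured by 2 probes. The probe with 10 spots per array (A_23_P208706) read 3.94, 4.004 and 3.9995 in control cells and 3.73, 3.87 and 3.98 in A673/TR/LOX-PP cells, a change of -0.12 (interval -0.59 to 0.35, adjusted p = 0.774) that was -0.054 without A673/TR/LOX-PP replicate 1. Its control arrays had the smallest spread of any member (SD 0.036). The other BAX probe (A_33_P3341144) read -0.31, -0.51 and -0.31 in control cells and -0.24, 0.23 and -0.18 in A673/TR/LOX-PP cells. This was the 1 member probe whose A673/TR/LOX-PP arrays all lay above the controls, with a gap of 0.072, and its change was 0.31 (interval -0.22 to 0.85, adjusted p = 0.472), or 0.17 without A673/TR/LOX-PP replicate 2. BAK1 codes for BAK, the effector that resides in the outer mitochondrial membrane. Its probe (A_23_P145357) read 3.103, 3.06 and 2.95 in control cells and 2.84, 2.72 and 2.82 in A673/TR/LOX-PP cells. The groups did not overlap, and the change was -0.24 (interval -0.70 to 0.22, adjusted p = 0.520).

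Of the BH3-only members, BCL2L11 had the lowest adjusted p among the 15 probes, on the probe for NM_138621 (A_24_P122921). BCL2L11 codes for BIM, which binds every pro-survival member and also engages BAX and BAK, and whose transcripts and splice forms differ in the exons they include. This probe read 0.47, 0.86 and 0.25 in control cells and -0.49, -0.11 and -0.62 in A673/TR/LOX-PP cells. The groups were apart by 0.36. The change was -0.93 with a 95% interval from -1.54 to -0.32, a ratio of 0.525 on the linear scale, and the adjusted p was 0.0943. Relative to the median of all probes it was -1.06. When each array was left out, the change ran from -1.08 to -0.76. The adjusted p (limma) was 0.3075 without control replicate 1 and 0.333 without control replicate 2. The other 2 BCL2L11 probes were both designed against NM_207002 and did not give this change of -0.93. One (A_33_P3251932) read -0.20, -0.24 and 0.14 in control cells and -0.59, -0.40 and -0.44 in A673/TR/LOX-PP cells, also without overlap, a change of -0.38 (interval -0.89 to 0.13, adjusted p = 0.363). The third probe (A_33_P3398526) read -1.07, -1.33 and -1.01 in control cells and -0.49, -1.13 and -1.39 in A673/TR/LOX-PP cells. Those arrays spanned the whole control range, and the change was 0.13 (interval -0.55 to 0.81, adjusted p = 0.834). Without A673/TR/LOX-PP replicate 1, its highest array, it was -0.12, and after quantile normalization -0.0021. It was 0.032 without control replicate 2 and 0.32 without A673/TR/LOX-PP replicate 3.

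The promoter of BCL2L11 is shown because that gene had the lowest adjusted p of the members and the only FOXO match among the 15 member promoters, which belonged to 9 of the 10 genes. The window (RefSeq, GRCh38.p14, chr2:111120664-111120963, plus strand) holds the FOXO letters at bases 28 to 34, counted from its 5′ end, and 3 GC boxes, all in capitals.
BCL2L11 promoter: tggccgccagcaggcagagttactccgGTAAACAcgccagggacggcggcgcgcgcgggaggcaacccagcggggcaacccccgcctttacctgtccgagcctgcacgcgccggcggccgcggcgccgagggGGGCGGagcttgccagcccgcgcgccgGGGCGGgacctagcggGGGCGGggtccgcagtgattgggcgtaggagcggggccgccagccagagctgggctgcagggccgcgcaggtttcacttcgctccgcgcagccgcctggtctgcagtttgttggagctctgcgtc
The G and C content of this window was 74.7%. Among the other members, the ETS letters stood in 1 of 2 BCL2L1 promoters. GC boxes stood in 11 of the 15 member promoters, from 7 genes including BCL2L11, beside 45.0% of all promoters. Some windows of BID and of BAD overlap, so the same boxes are counted more than once. No member promoter held the tandem ETS site, the E2F site or the cyclic AMP response element. A match to letters is a description of the sequence and not an observation of binding.

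BID, which caspase-8 cleaves to link death receptors to the mitochondrion, was measured by 2 probes for NM_197966 that gave nearly the same change. The first (A_33_P3227041) read 5.01, 5.26 and 5.31 in control cells and 4.73, 4.85 and 4.87 in A673/TR/LOX-PP cells, a change of -0.38 (interval -0.86 to 0.11, adjusted p = 0.340). On the second (A_24_P187948) control cells read 4.51, 4.93 and 4.79 and A673/TR/LOX-PP cells 4.35, 4.28 and 4.51, a change of -0.36 (interval -0.87 to 0.15, adjusted p = 0.386). The groups did not overlap on either probe, although on the second the gap was only 0.0023. BAD, which binds BCL2 and BCL-XL and is held in the cytosol by 14-3-3 proteins when phosphorylated, gave overlapping groups. Its probe (A_33_P3262043) read 3.45, 3.18 and 3.47 in control cells and 2.73, 3.40 and 3.46 in A673/TR/LOX-PP cells, a change of -0.17 (interval -0.81 to 0.47, adjusted p = 0.762). One array, A673/TR/LOX-PP replicate 1, lay below the others, and without it the change was 0.062. Omission of control replicate 2 or of A673/TR/LOX-PP replicate 2 or 3 gave -0.27, -0.27 and -0.30.

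BBC3 and PMAIP1 are known targets of p53 and code for PUMA and NOXA, the first of which binds all pro-survival members and the second mainly MCL1. Their changes were above 0 with wide intervals. BBC3 (A_23_P382775) read -0.03, 0.04 and 0.98 in control cells and 0.06, 0.35 and 1.64 in A673/TR/LOX-PP cells. In each group 1 array, replicate 3, stood well above the other 2. The change of 0.35 had the widest interval of the members (-0.79 to 1.495, limma adjusted p = 0.722, or 0.496 with a replicate block). Without the highest array, A673/TR/LOX-PP replicate 3, it was -0.12, without control replicate 1 or 2 it was 0.18 and 0.21, and without control replicate 3 or A673/TR/LOX-PP replicate 1 it was 0.68 and 0.66. PMAIP1 (A_33_P3619171) read 2.47, 3.12 and 3.22 in control cells and 3.57, 2.93 and 3.098 in A673/TR/LOX-PP cells. The groups overlapped, the change was 0.26 (interval -0.44 to 0.96, adjusted p = 0.664), and the lowest and the highest array were both replicate 1 of their group. Without control replicate 1 it was 0.028 and without A673/TR/LOX-PP replicate 1 it was 0.076, while without control replicate 3 or A673/TR/LOX-PP replicate 2 it was 0.40.

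**Figure D2:**
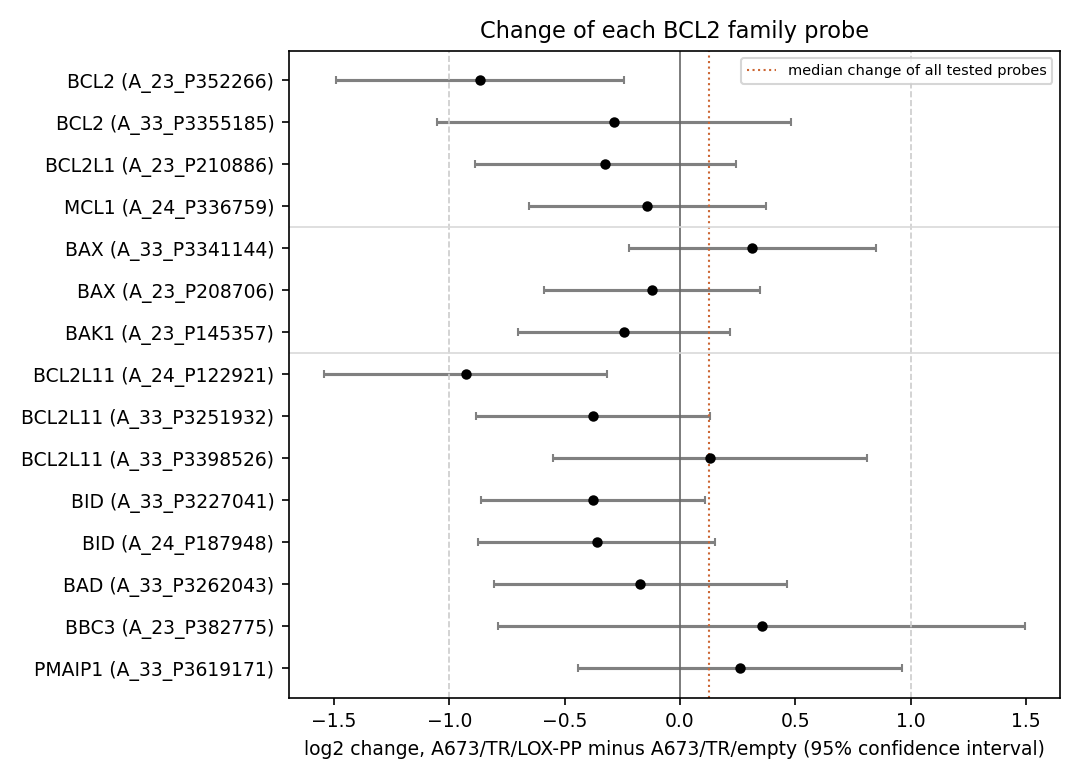
Points are the limma changes of the 15 member probes, A673/TR/LOX-PP minus A673/TR/empty (horizontal axis, log2 units), with 95% confidence intervals as bars, dashed lines at 1 log2 unit and a dotted line at the median of all tested probes, 0.13. The intervals of BCL2 A_23_P352266 and BCL2L11 A_24_P122921 are the 2 that do not include 0, and neither probe passed the adjusted threshold.

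Probes of the same gene were then set against each other on each array, which removes whatever an array adds to both. The difference between the 2 probes was taken on every array for the 6 pairs within BCL2, BAX, BCL2L11 and BID, a comparison chosen after the values of single probes had been seen. With 3 arrays against 3, an exact permutation test (two-sided) cannot give a p below 0.1. The alpha minus the beta probe of BCL2 was 0.88, 0.96 and 0.68 in control cells and -0.40, 0.58 and 0.60 in A673/TR/LOX-PP cells, a shift of -0.58 (exact p = 0.1, adjusted over the 6 pairs 0.2). The groups did not overlap, and A673/TR/LOX-PP replicate 1 was far below the rest, without which the shift was -0.25. BCL2L11 A_24_P122921 minus A_33_P3398526 was 1.53, 2.19 and 1.26 in control cells and 0.0087, 1.02 and 0.77 in A673/TR/LOX-PP cells. This shift of -1.06 was the widest of the 6 and also without overlap (exact p = 0.1, adjusted 0.2). BAX A_33_P3341144 minus A_23_P208706 shifted by 0.43 without overlap (exact p = 0.1, adjusted 0.2). In contrast, the BID probes shifted by -0.015 (exact p = 1.0), and the other 2 BCL2L11 pairs overlapped (exact p = 0.2, adjusted 0.24). Thus the groups did not overlap in 3 of the 6 pairs, 1 each of BCL2, BAX and BCL2L11, beside 27.6% of 8120 pairs of tested probes of the same gene over the whole array.

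Members of opposing roles were compared in the same way, again after their values had been seen. BCL2 (alpha probe) minus BAX (10-spot probe) was -2.73, -2.49 and -3.31 in control cells and -3.51, -3.55 and -3.72 in A673/TR/LOX-PP cells. The groups did not overlap and the shift was -0.75 (exact permutation p = 0.1, the lowest possible). BCL2L11 A_24_P122921 minus MCL1 shifted by -0.79, also without overlap (exact p = 0.1). The BCL2 and BCL2L11 probes used here had the lowest p of their genes, and their groups already did not overlap singly. The lack of overlap in these differences therefore largely repeats the single-probe results. No share over pairs of different genes was computed, and these exact p values were not adjusted. BCL2L11 A_24_P122921 minus the BCL2 alpha probe was -0.61 ± 0.16 (SD, n = 3) in control cells and -0.68 ± 0.23 in A673/TR/LOX-PP cells. That shift of -0.064 was within the spread between arrays (exact p = 0.8) and ran from -0.18 to 0.04 when each array was left out.

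The tested probes whose levels ran most like BCL2L11 A_24_P122921 over the 6 arrays, among 22211 named probes of other genes, were those of LYAR, a nucleolar protein, PLK4, the kinase of centriole duplication, and PEPD, a dipeptidase that cleaves before proline. The Pearson correlation rounded to 0.998 for each. A correlation over 0.9 was found for 1122 probes, and all of them share the 6 arrays and the split into groups, so this is a description of the arrays. The changes were -0.47 for LYAR, -0.59 for PLK4 and -0.43 for PEPD, each smaller in size than that of BCL2L11 and none past the test (adjusted p from 0.190 to 0.283).

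Next, 86 other genes of the apoptosis machinery were examined in 6 lists. Of their 125 probes 117 were tested, and 5 passed the threshold (4.27%, beside 5.66% of all probes), 2 higher and 3 lower in A673/TR/LOX-PP cells. The median change was 0.025, compared with 0.13 over all tested probes, and both turned below 0 after quantile normalization (-0.045 and -0.03). Every one of these 5 calls was lost without control replicate 1 and without control replicate 2. All 5 were also lost with no filter and by the methods' t-test (adjusted p from 0.0592 to 0.129), and the calls of BOK, TNFRSF10A and TP63 with a replicate block (0.0597, 0.0682 and 0.0870). Calls were gained as well. BIK, CFLAR, DYNLL2, TP73, BIRC3 and BIRC7 passed only under some other settings of normalization, floor, filter, block or omitted array.

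Among the other BCL2 family genes 16 probes were tested, with 0 called higher and 1 lower and a median change of 0.16. BOK, a relative of BAX and BAK that can permeabilise the mitochondrion by itself, fell from 0.84 ± 0.26 to -0.50 ± 0.26 (SD, n = 3), a change of -1.34 (adjusted p = 0.0290). This call was also lost without control replicate 3 and without A673/TR/LOX-PP replicate 2 or 3, with adjusted p values from 0.0537 to 0.128 over the 5 omissions. BIK, a BH3-only protein of the endoplasmic reticulum, had the larger change of -1.51 and did not pass (adjusted p = 0.0561). It did pass after quantile normalization and without control replicate 3. The same held when probes had to be well above background on all 6 arrays or on all arrays of a group. BMF, a BH3-only protein tethered to myosin V motors through a dynein light chain, had changes of 1.26 and 0.62 on its 2 probes, each without overlap (adjusted p = 0.0877 and 0.169). DYNLL2, that light chain, had a change of 0.82 (adjusted p = 0.0802).

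In the list of mitochondrial partners and released proteins 23 probes were tested, 0 were called higher and 1 lower, and the median change was -0.12. MTCH2, the outer membrane protein that receives truncated BID, fell from 2.84 ± 0.22 to 1.16 ± 0.30 (SD, n = 3). Its change of -1.68 had the lowest adjusted p of the 117 probes (0.0142), which became 0.0971 without control replicate 1 and 0.0843 without control replicate 2. DNM1L, the GTPase of mitochondrial fission, had changes of -0.66 and -0.65 on its 2 probes, both without overlap and neither past the test (adjusted p = 0.114 and 0.150). The probes of OPA1, the GTPase of inner membrane fusion, went apart, at 0.88 (adjusted p = 0.203) and -0.31 (adjusted p = 0.510).

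The apoptosome and caspase list had 17 tested probes, 0 called in either direction, and a median change of -0.10 (-0.24 after quantile normalization). The lowest p values belonged to CASP8, the initiator caspase of the death receptors, to CASP6, an effector caspase, and to DFFB, the nuclease that cuts DNA in dying cells. Their changes were -0.73, -0.63 and -0.57 (adjusted p = 0.159, 0.182 and 0.254), and a second DFFB probe gave 0.17. The inhibitor of apoptosis proteins had 10 tested probes with 0 called and a median change of 0.13 (0.029 after quantile normalization). Here BIRC7, also known as livin, had a change of 1.25 (adjusted p = 0.0977), and BIRC6, a large ubiquitin-conjugating enzyme, one of -0.62 (adjusted p = 0.264). NAIP, a sensor of bacterial proteins, had one of 0.70 (adjusted p = 0.386) on the probe with the lowest p of its 3. That change was 0.27 without A673/TR/LOX-PP replicate 1 and 0.26 after quantile normalization. The other NAIP probes changed by -0.10 and -0.0087.

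Death receptors and their adaptors gave 1 probe called higher and 1 lower of 16 tested, with a median change of -0.046 (-0.075 after quantile normalization). TNFRSF10A, a receptor for TRAIL that carries a death domain, fell from -0.72 ± 0.19 to -2.10 ± 0.37 (SD, n = 3), a change of -1.38 (adjusted p = 0.0313). That call was also lost without control replicate 3 and without A673/TR/LOX-PP replicate 2 or 3 (adjusted p from 0.0847 to 0.167 over the 5 omissions). TNFRSF10C, a decoy receptor for the same ligand without a death domain, was called higher, with a change of 2.13 (adjusted p = 0.0290) from -5.38 ± 0.76 to -3.25 ± 0.23. Its probe was well above background on 1 of 3 control arrays and on all 3 A673/TR/LOX-PP arrays, so it met the filter through the higher group alone and the size of the change is uncertain. The change was 1.46 with a common floor (adjusted p = 0.0131) and 1.38 after normexp background correction, where the call was lost (adjusted p = 0.0987). The call was also lost without A673/TR/LOX-PP replicate 2 or 3 (adjusted p from 0.0844 to 0.142 over the 4 omissions). CFLAR codes for FLIP, which competes with caspase-8 at the receptors. Its 4 probes disagreed, with changes of -0.82 (adjusted p = 0.0675), -0.52, 0.88 and -0.14, of which none passed the test. CFLAR was called with a common floor. It was also called when probes had to be well above background on all 6 arrays or on all arrays of a group.

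Regulators of BCL2 family genes and proteins (35 tested probes) had 1 call, TP63, higher, and 0 lower, and a median change of 0.092 that turned to -0.0225 after quantile normalization. TP63, a transcription factor related to p53, was called higher by 1.96 (adjusted p = 0.0363), from -5.47 ± 0.23 to -3.50 ± 0.75 (SD, n = 3). The probe was well above background on only 2 arrays of each group. The call was also lost without control replicate 3 or A673/TR/LOX-PP replicate 3 (adjusted p from 0.0864 to 0.164 over the 4 omissions), after quantile normalization (change 1.37, adjusted p = 0.272) and with a common floor (change 1.305, adjusted p = 0.0985). After normexp the change was 1.299 and the call held (adjusted p = 0.0343). USP9X, which removes ubiquitin from MCL1, had a change of -1.15 (adjusted p = 0.106).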

How the data were processed

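The authors deposited, for each Agilent 1-colour array, the intensity of every spot as written by Feature Extraction 10.7 (per the labels), with flags for background and outliers, and a table of processed log2 values, whose normalization is not given in the sources used here. From the intensity (gProcessedSignal, already background-corrected), log2 values were taken without control or outlier spots, reduced to 1 value per probe by averaging, and expressed over the array's own 75th percentile. The deposited log2 values, as differences between arrays, matched these within 0.02 on 50537 of 50599 probes. Probes above background on 3 or more of the 6 arrays (32647) were tested with limma 3.58.1 (R 4.3.3, lmFit and eBayes), the p adjusted by Benjamini-Hochberg over all of them, with a threshold of 0.05. The count of groups that do not overlap used the 32586 probes with a value on every array. Intervals are at 95%. The number of arrays limits the precision.

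Groups came from the labels. Probes were named by accession through a RefSeq table (28174 of 50599 matched), and promoters came from a RefSeq table of GRCh38.p14, which holds 9 of the 10 genes. The limma step was tested on simulated independent arrays. These held no effect of a slide or of a single array, so that test does not cover such effects. The members, gene lists and tests were chosen with earlier results of these data known. All member probes are described. From each other list, every probe past the threshold was named and, where fewer than 3 genes were, those with the lowest p up to 3. The 17 alternatives covered normalization, background, filter, block, the methods' t-test and omission of each array. Of the listed genes' probes, 8 failed the filter and were not tested.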

Additional observations from a re-analysis of the deposited data

How the results depend on the processing

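The count of member probes past the threshold was 0 under all 17 alternatives, with a lowest adjusted p of 0.0636 (limma), for BCL2L11 among probes well above background on all 6 arrays, while without control replicate 2 the lowest was 0.333. Of 255 changes of member probes under these alternatives, 249 kept their direction and 6 reversed. The filters, the common floor, the replicate block and the methods' t-test left every member change at its main value. No reversal was possible under those, so the 249 do not measure how stable the directions are. BCL2L11 A_33_P3398526 was -0.0021 after quantile normalization and -0.12 with the slide as a block, and ran from -0.12 to 0.32 when each array was left out. BAD was 0.062 with the slide as a block and ran from -0.30 to 0.062 over the omissions, and BBC3 from -0.12 to 0.68. The slide as a block is the same fit as leaving out A673/TR/LOX-PP replicate 1, so its changes repeat among the 255. The causes were not tested.

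Over all probes the number past the threshold was 516 with no filter, 860 with a replicate block, 566 by the methods' t-test after Benjamini-Hochberg, and from 407 to 2062 when each array was left out. Among the other apoptosis genes it was 0, 2 and 0 under the first 3 of these, and from 0 to 6 over the omissions. The deviations of same-numbered arrays from their group means had correlations of 0.27, -0.39 and 0.23. Deviations from a mean of 3 arrays are tied to each other, so these values cannot settle whether the numbers pair the arrays.

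With 3 arrays a group, the intervals of 4 member probes reached past 1 log2 unit, so a 2-fold change of BCL2, BCL2L11 or BBC3 was not excluded by these arrays.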
